A study of Schizosaccharomyces pombe with 36 samples.

Results

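The experiment asked what an array of fork pause sites does to replication that restarts at a programmed fork barrier on chromosome II of fission yeast (Schizosaccharomyces pombe). It holds 6 of the 36 libraries of the series, which form 3 of its 16 pairs of a Pol δ and a Pol ε library. The pairs were chosen by their sample labels: 1 pair carried RTS1 at the ChrII-8535 site without an array, and 2 pairs carried RTS1 at that site together with the 10xrRFB array. All were compared over the stretch from 800 to 930 kb of chromosome II, in reference coordinates, with the barrier switched on.

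RTS1 is a polar fork barrier from the mating type locus that arrests forks of one direction when the protein Rtf1 is bound to it. An arrested fork can be restarted by homologous recombination (HR), and the restarted fork uses Pol δ on both strands, whereas a canonical fork uses Pol ε on the leading strand and Pol δ on the lagging strand. The rRFB array consists of copies of the Ter2-Ter3 sequence of the ribosomal DNA, where forks pause without collapse, and it was placed between RTS1 and the late origin that sends forks leftward to RTS1. In Pu-seq, a Pol δ or Pol ε mutant inserts extra ribonucleotides, which stay in the DNA of cells without RNase H2, and their mapped positions give the share of each polymerase along each strand.

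Each library came from 1 haploid strain. All 6 strains were h-, carried rnh201::kan, which removes ribonucleotide excision, and the markers ade6-704, leu1-32 and ura4-D18, and had no rtf1 deletion in their labels. Each held either the Pol δ mutation cdc6-L591G or the Pol ε mutation cdc20-M630F. The strains of the no-array pair carried the cassette named TuraR at ChrII-8535 and kept their native RTS1. By the paper's methods, the construct integrated in TuraR strains held RTS1, ura and a sequence named ter. The no-array pair thus lacks the array, but its cassette holds ter sequence. The array is itself made of Ter2-Ter3 copies, so the no-array locus may hold the array's own kind of element in its RTS1 cassette. The strains of the array pair carried Rura-10xrDNA at that site and the deletion RTS1natural::Phleo. The strains of the array Ku70:leu2 pair carried the same locus and deletion, smt0x, a marker of the mating type locus, and the allele written Ku70:leu2. The array is therefore not the only difference: the native RTS1, the cassette and, in 1 pair, the mating type and pku70 markers differ as well, and their parts in the results cannot be told apart. Cells were grown in log phase at 30 °C.

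Both insertion sites were found by matching the study's primer arms to the RefSeq assembly ASM294v3, and the reference bases around them are shown because every position here is a distance from them. Each line gives the 15 bases left of the insertion point in lower case and the 15 bases right of it in capitals, on the plus strand of chromosome II (851791 to 851820 and 862443 to 862472).
RTS1 site: ttagtttcccaagtaGAGTAATGTATCAAC
array site: gtggccaagaaccagTTTTCTTAAAAACTA

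The RTS1 cassette entered after base 851805, in intergenic sequence between clr6, which encodes a histone deacetylase, and spo9, whose annotated transcript ends 3 bp to the right. The array entered after base 862457, 10652 bp to the right, in the 5′ untranslated region of SPBC36.11 and 817 bp before its coding sequence. The protein-coding genes that lie wholly between the sites include spo9, cog2, sap61 and ups2. Among these, cog2 encodes a subunit of the Golgi transport complex COG and sap61 a spliceosomal protein. The counts of the no-array pair lay on a genome with an estimated 3000 added bases at RTS1 and none at the array site. For the array strains the estimates were 2770 bases at RTS1 and 960 at the array, so the RTS1 cassettes differed by about 230 bp.

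The 6 libraries held 11419114 to 20783532 counts. The median bin over rtf1 stood at 0.681 to 0.955 of its flanks in all 6, as the labels require. Over rnh201 the emptiest bin was at or below 0.0365. Its median bin was low but not empty, from 0.0611 in the no-array Pol ε library to 0.208 in the array Ku70:leu2 Pol δ library. The label Ku70:leu2 was not borne out as a deletion. The median bin over pku70, which encodes a subunit of the Ku end-binding complex, was at 0.943 and 1.04 of its flanks in these libraries, inside the 0.737 to 1.03 of 22 libraries labelled pku70+ or just above it. In the barrier-off pair with the same label it was at 0.879 and 0.839. In the 4 libraries labelled Ku70::hyg the median bin was 0. The pair is named by its label throughout, and values of the 2 array pairs are given singly, beside their mean. Only the genome-wide test takes them as replicates of the array.

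Pol ε usage on the Watson strand measures rightward canonical forks, and on the Crick strand it measures leftward canonical forks, here those that converge on RTS1. The usage is the Pol ε count, divided by the library total, as a percentage of both scaled counts. On the Watson strand usage fell at RTS1 and stayed low to its right, with and without the array. In the 3000 bp to the left it was 78.5% in the no-array pair, 93.5% in the array pair and 87.1% in the array Ku70:leu2 pair, and the no-array value was below those of all 6 barrier-on pairs with the array. Genome-wide, the no-array pair lay outside the range of these 6 in 52.7% of Watson-strand and 53.3% of Crick-strand windows of 3000 bp, so lying outside them is not by itself a feature of the locus. Between RTS1 and the array site it was 30.1% (95% counting interval 29.1 to 31.1), 27.8% (26.8 to 28.9) and 31% (30.1 to 32.0) in the same order. In 4 pairs with an unmodified ChrII locus it was 76.1 to 84.7%. The no-array value thus lay between the values of the array pairs, and the difference from their mean, 0.63 percentage points (interval -0.59 to 1.87), was smaller than that between the array pairs (-3.19 points, array minus array Ku70:leu2). Beyond the array site, over 12 kb, usage stayed low at 34.5%, 30.5% and 35.3%.

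**Figure D1:**
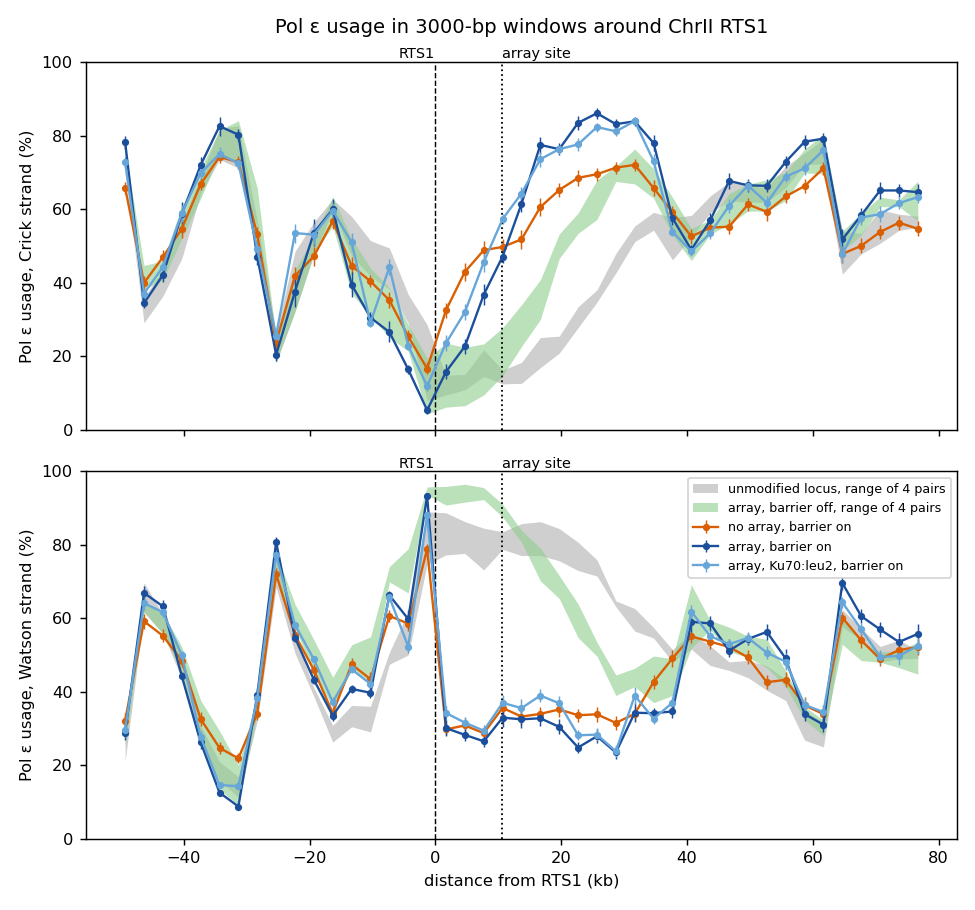
Pol ε usage in 3000-bp windows against the distance from RTS1, on the Crick strand (upper panel) and the Watson strand (lower panel), for the no-array pair and the 2 array pairs with the barrier on; bars are 95% counting intervals, and the shaded bands give the range of 4 barrier-off pairs with the array and of 4 pairs with an unmodified locus. In the first 3 windows right of RTS1, Crick-strand usage of the no-array pair lay above both array pairs (42.9% against 22.6 and 31.9% at 4.695 kb), and from 13.695 to 34.695 kb it lay below them (60.6% against 77.5 and 73.6% at 16.695 kb). It lay below both again from 46.695 kb to the right edge, except at 64.695 kb.

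Right of RTS1 the pairs separated more on the Crick strand than on the Watson strand. Without the array, usage by converging forks was higher next to RTS1 and lower beyond the array site. The lower usage was not confined to the 12 kb beyond that site. From 46.695 kb right of RTS1 to the right edge it again lay below both array pairs, except at 64.695 kb. At 46.695 kb it was 55.2% against 67.7 and 60.9%, and at 76.695 kb 54.6% against 64.6 and 63.3%. From 37.695 to 43.695 kb it was not below both. Between the sites Crick-strand Pol ε usage was 41.4% (40.1 to 42.7) in the no-array pair, 25.5% (24.2 to 26.8) in the array pair and 34.8% (33.5 to 36.1) in the array Ku70:leu2 pair. Beyond the site it was 60.4% (59.3 to 61.5), 69.3% (68.3 to 70.2) and 71.2% (70.5 to 72.0). The no-array pair was outside the range of all 6 barrier-on pairs with the array in both stretches, 18.8 to 34.8% between the sites and 67.6 to 73.9% beyond them. These 6 are the 2 pairs above, 2 pairs with rnh201-RED in place of the deletion, 1 pair with rtf1 under the adh1 promoter and 1 with RTS1 in tandem. Against the mean of the 2 array pairs, the no-array pair was higher by 11.3 points (9.70 to 12.9) between the sites and was -9.86 points (-11.2 to -8.58) from it beyond them. The counting intervals cover the depth of these libraries only, and no test was made on these stretch values, since only 1 pair lacked the array.

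The shape of the rise differed as well. In the no-array pair Crick-strand usage climbed gradually, from 35% in the part of the inter-site stretch next to RTS1 to 43.3% in the middle part and 48.0% in the part next to the array site, all 3 of equal length. It went on to 52.7%, 57.4%, 62.3% and 68.2% in the 4 windows of 3000 bp beyond. In the array pair the same parts held 16.6%, 27.4% and 39.6% and the windows beyond 57.1%, 73.9%, 75.7% and 81.2%. In the array Ku70:leu2 pair the parts held 25.4%, 35.4% and 48.7% and the windows beyond 63.8%, 71.8%, 75.1% and 78.2%. The no-array pair exceeded all 6 barrier-on pairs with the array in the first and the middle part. Next to the array site, at 48.0% (45.7 to 50.2), it lay above the array pair at 39.6% (36.6 to 42.6) and was not distinguishable from the array Ku70:leu2 pair at 48.7% (46.2 to 51.2).

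At the array site itself the difference between the 3000 bp on either side, leaving out 600 bp beside the insertion, was 4.48 points (1.17 to 7.77) in the no-array pair. It was 17.5 points (14 to 20.8) in the array pair and 15 points (12.2 to 17.9) in the array Ku70:leu2 pair, and 15 to 27.5 points over all 6 barrier-on pairs with the array. At RTS1 the order was the opposite. From the 3000 bp left of RTS1 to those right of it, Crick-strand usage rose by 18.4 points (15.9 to 20.9) without the array and by 11.1 (9.29 to 13.0) and 14.2 points (12.0 to 16.4) with it, and by 3.89 to 14.2 points over the 6 pairs.

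**Figure D2:**
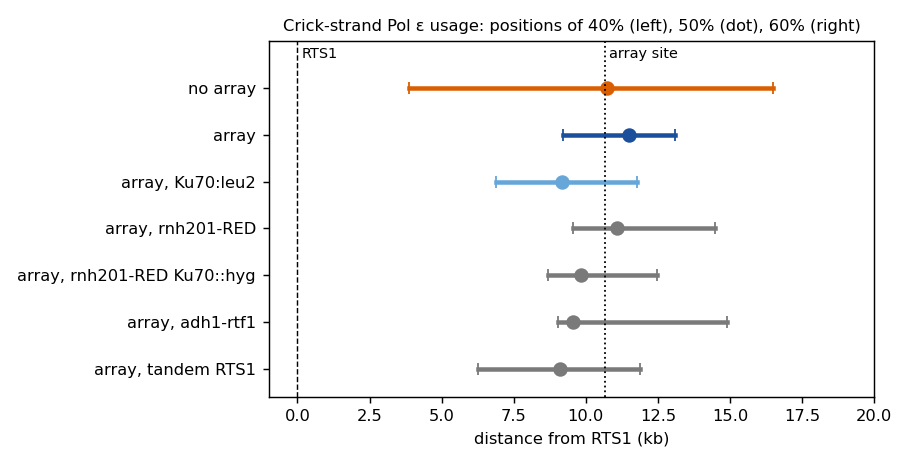
Distance from RTS1, in kb, at which Crick-strand Pol ε usage, smoothed over 11 bins, first passed 40% (left end), 50% (dot) and 60% (right end), for the no-array pair and 6 barrier-on pairs with the array. The dots of the 6 pairs with the array lie between 9111 and 11495 bp, with that of the no-array pair among them, while the line of the no-array pair, 12628 bp long, is the longest of the 7.

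The place where converging forks met the fork from the left was taken as the first point right of RTS1 at which smoothed Crick-strand usage passed 50%. It was 10719 bp from RTS1 in the no-array pair, 11495 bp in the array pair and 9162 bp in the array Ku70:leu2 pair. The 6 barrier-on pairs with the array ran from 9111 to 11495 bp, so the no-array pair fell inside them. Its counting interval was wide, 7670 to 13931 bp, against 11178 to 11745 bp in the array pair and 8153 to 9337 bp in the array Ku70:leu2 pair, and its usage rose slowly around 50%.

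The no-array pair stood apart from the barrier-on pairs with the array in the spread around that point. Usage passed 40% at 3857 bp (3361 to 4410) without the array, and at 9198 bp (7840 to 9403) and 6884 bp (6601 to 7289) with it. It passed 60% at 16485 bp (16045 to 17906) without the array, and at 13107 bp (12932 to 13349) and 11767 bp (11303 to 12039) with it. The distance from 40 to 60% was thus 12628 bp in the no-array pair, 3909 bp in the array pair and 4883 bp in the array Ku70:leu2 pair. In the other barrier-on pairs with the array it was 4936 bp (rnh201-RED), 3781 bp (rnh201-RED Ku70::hyg), 5853 bp (adh1-rtf1) and 5629 bp (tandem). The no-array zone was the widest of these 7. It was not the widest of all pairs, as the 4 unmodified pairs had 16625, 17643, 15393 and 8608 bp. The 4 barrier-off pairs with the array had 6133, 5243, 7369 and 8544 bp. From 30 to 70% the distance was 25440 bp in the no-array pair and 9346 and 11683 bp in the 2 array pairs. In the no-array pair the positions of 40 and 60% lay at -6795 and 5833 bp from the array site, on either side of it.

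The no-array pair also had the narrowest range of usage genome-wide. Over 4169 windows of 3000 bp outside the locus, the 5th to 95th percentile of Crick-strand Pol ε usage ran from 23.1 to 75.2% in the no-array pair. In the array pair it ran from 14 to 84.9% and in the array Ku70:leu2 pair from 18.4 to 80.5%. The pair with RTS1 at ChrI-4740 was close to the no-array pair, with 22 to 75.2%. When each pair was rescaled linearly so that these percentiles matched the mean of the 2 array pairs, Crick-strand usage between the sites became 39.6% in the no-array pair, 26.9% in the array pair and 33.8% in the array Ku70:leu2 pair. Beyond the array site the rescaled values were 63.8%, 68.1% and 72.7%, and the step at the site 5.72, 16.4 and 16.1 points. The rescaled distance from 40 to 60% was 11722, 4076 and 4525 bp. The order of the no-array pair against both array pairs was kept in each of these measures, and the gap beyond the array site shrank from -9.86 to -6.61 points. Watson-strand usage between the sites, in contrast, became 25.3% without the array and 29.3 and 29.6% with it, a difference of -4.20 points. The 50% point of the no-array pair moved to 9029 bp, below the rescaled 9159 to 11498 bp of the 6 barrier-on pairs with the array. The part of the narrower range in these results was otherwise not tested.

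**Figure D3:**
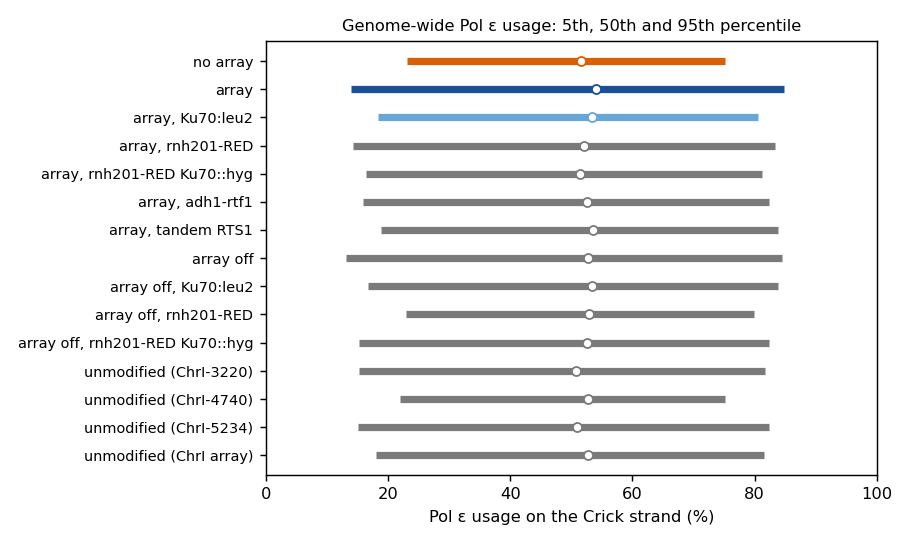
Genome-wide Crick-strand Pol ε usage, in percent, over 3000-bp windows outside the locus for all 15 pairs used; each bar runs from the 5th to the 95th percentile and the circle is the median. The bar of the no-array pair, 23.1 to 75.2%, is the shortest, followed by that of the ChrI-4740 pair.

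Synthesis by restarted forks shows as an excess of Pol δ, the amount by which Pol δ usage summed over both strands passes 100%. Between the sites the sum was 128.5% (126.9 to 130.1) in the no-array pair, 146.7% (145.0 to 148.3) in the array pair and 134.1% (132.5 to 135.7) in the array Ku70:leu2 pair. All 6 barrier-on pairs with the array were above the no-array pair, at 134.1 to 165.0%, and the 4 unmodified pairs were at 101.9 to 106.8%. The difference of -11.9 points (-13.9 to -9.92) from the mean of the array pairs lay mainly on the Crick strand, as the Watson-strand difference was 0.63 points. It was close in size to the 12.6 points between the 2 array pairs. After the rescaling the sums were 135.2%, 143.8% and 136.6%, a difference of -5.01 points, so the size of this result depended on the rescaling.

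The excess faded with distance from RTS1 in all 3 pairs. Relative to the genome-wide median of each pair, it was 37.1 points (34.4 to 39.7) in the first 3000 bp right of RTS1 without the array, and 58.1 points (55.2 to 60.9) and 46.1 points (43.3 to 48.7) with it. In the window centred 14100 bp from RTS1, beyond the array site, it was 14.7 points (11.1 to 18.3) without the array, against 7.47 (4.18 to 10.7) and 0.94 points (-2.07 to 3.91). At 17100 bp it was 5.95 points (3.02 to 8.89) without the array and below 0 in both array pairs, at -6.26 and -6.83 points. The no-array pair thus began with the least excess and held the most of the 3 pairs at 14100 and 17100 bp. The adh1-rtf1 pair, with 22.0 and 12.7 points in these windows, exceeded it.

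The reach, the distance at which the excess fell to 0.5 of its first value, was 9943 bp (8966 to 10925) in the no-array pair, 9883 bp (9185 to 10503) in the array pair and 8598 bp (8007 to 9131) in the array Ku70:leu2 pair. The first 2 do not differ beyond their intervals. The distance to 0.25 of the first value was 15961, 12752 and 10719 bp. Over the 12 kb beyond the array site the sum of Pol δ usage was 105.1% (103.7 to 106.6) without the array and 100.2% (98.8 to 101.6) and 93.4% (92.2 to 94.6) with it. The no-array value fell inside the 93.4 to 112.9% of the 6 barrier-on pairs with the array. Genome-wide, the excess of single windows ran from -10.7 to 9.21 points in the no-array pair and from -20.5 to 13.0 points in the array pair (5th to 95th percentile, before the medians of -1.16 and -3.86 points were subtracted). With or without that subtraction the 14.7 points of the no-array pair at 14100 bp lay above its genome-wide range, while its 5.95 points at 17100 bp and the values of the array pair in both windows lay within theirs.

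**Figure D4:**
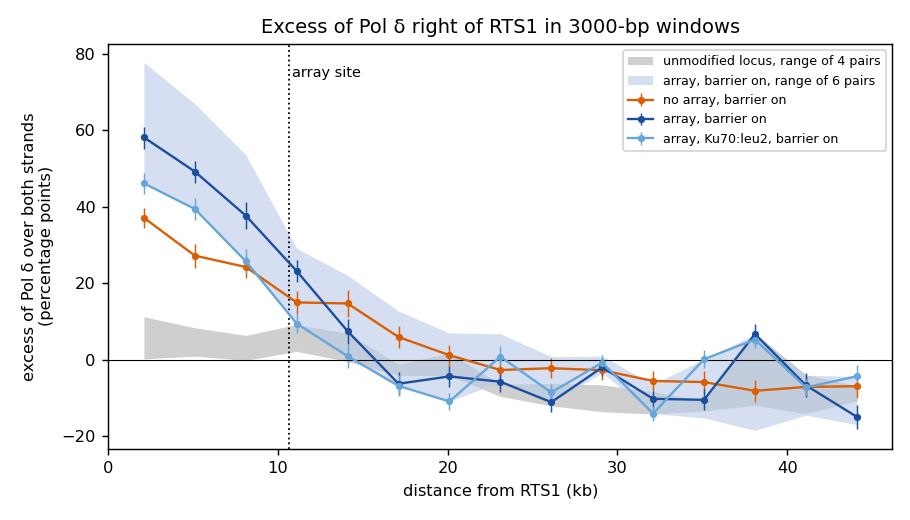
Excess of Pol δ over both strands, in percentage points above 100% and relative to the genome-wide median of each pair, in 3000-bp windows against the distance from RTS1; bars are 95% counting intervals and bands the range of 6 barrier-on pairs with the array and of 4 unmodified pairs. The no-array pair starts at 37.1 points, below both array pairs, and lies above them at 14100 bp with 14.7 points.

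Across the stretch from 801001 to 930000, the no-array pair lay outside the range of the 6 barrier-on pairs with the array in 6 (above) and 18 (below) of 43 Crick-strand windows, together 55.8%, and in 7 and 8 of 43 Watson-strand windows, together 34.9%. Genome-wide it lay above in 18.3% and below in 35% of Crick-strand windows, and above in 18.9% and below in 33.8% of Watson-strand windows. The Crick-strand share of the stretch was thus near the genome-wide 53.3%, and its Watson-strand share below the genome-wide 52.7%. On the Crick strand the 3 windows furthest from the mean of the array pairs were all right of RTS1. At 855001 to 858000, within cog2, usage was 42.9% without the array and 22.6 and 31.9% with it. At 867001 to 870000 it was 60.6% against 77.5 and 73.6%, and at 876001 to 879000 69.5% against 86.1 and 82.3%. On the Watson strand the largest difference was centred 37695 bp right of RTS1, at 888001 to 891000, where usage was 49.1% (46.8 to 51.4) without the array and 34.6% (32.9 to 36.4) and 37.0% (35.5 to 38.5) with it. The other barrier-on pairs with the array reached up to 50.8% there and the unmodified pairs 48.1 to 51.5%, so the no-array pair lay within both ranges. The next were 849001 to 852000, just left of RTS1, with 78.8% against 93.3 and 88.1%, and 816001 to 819000, with 24.7% against 12.6 and 14.6%. These differences were -11.8 and 11.1 points, and after the rescaling -3.42 and 4.94 points, whereas that at 888001 was 13.3 points before it and 13.6 points after it.

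A test across the genome asked whether the ratio of Pol ε to Pol δ differed between array and no-array strains in any strand window of 3000 bp. edgeR's quasi-likelihood F-test of the interaction of polymerase and array, with Benjamini-Hochberg adjustment, called 0 of the 86 windows of the stretch and 0 of all 8379 windows, a background of 0%. At an unadjusted p under 0.05 there were 14 of 86 (16.3%), against a background of 929 of 8379 (11.1%). The window at 855001 on the Crick strand had a log2 ratio, array over no array, of -1.16 with an adjusted p of 0.372, and that at 876001 one of 1.08 with an adjusted p of 0.294. The Watson-strand window at 888001 had a log2 ratio of -0.92 and an adjusted p of 0.309. The lowest adjusted p was 0.274, which 110 windows shared, none of them in the stretch. The 3 with the lowest unadjusted p lay on the Watson strand, at 960001 and 1317001 on chromosome III and at 1629001 on chromosome II. Only the 2 array pairs give a spread in this fit, with 2 residual degrees of freedom. DESeq2 called 541 windows (6.46%), of which 7 were in the stretch, 3 with a higher and 4 with a lower ratio in the array strains, against 66 higher and 475 lower genome-wide. Without the Pol ε library of the array Ku70:leu2 pair, edgeR called 596 windows (7.11%), of which 9 were in the stretch.

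What the locus does to forks when RTS1 does not arrest them was compared in 4 barrier-off pairs with the array, which lack rtf1 and carry rnh201::kan or rnh201-RED with or without a Ku70 allele, and 4 pairs with an unmodified ChrII locus, whose constructs lie on chromosome I. Here each group has 4 pairs, but every pair has its own genotype and none was repeated. The SDs and permutation tests below take these differing pairs as replicates of their group. Cassette, array, rtf1 deletion and the deletion of the native RTS1 cannot be told apart. In the Pol δ library of the barrier-off rnh201::kan pair, whose label names no array but whose strain-table entry does, counts over rtf1 were still at 0.201 of their flanks, against 0 to 0.00586 in the other 7 barrier-off libraries. The ChrI-4740 pair is labelled rtf1::nat, but its counts over rtf1 were at 0.926 and 1.02 of their flanks.

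In the barrier-off pairs usage by converging forks beyond the array site was higher than in the unmodified pairs. Crick-strand Pol ε usage there was 33.7, 37.5, 38.1 and 45.8% in the barrier-off pairs and 18.5, 19.1, 19.3 and 23.4% in the unmodified pairs. The groups do not overlap, and the means were 38.8% ± 5.08 and 20.1% ± 2.26 (SD, n = 4 each; exact two-sided permutation test, p = 0.0286, the smallest this design allows, adjusted p = 0.0333 over 7 measures). Usage between the sites did not separate them, at 13.1% ± 7.22 and 14.3% ± 2.52 (exact permutation test, adjusted p = 0.80). How often these groups separate in windows elsewhere in the genome was not counted. Lack of overlap is therefore not by itself a feature of the locus, here or in the measures below.

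The 50% point lay 20104 bp ± 1855 right of RTS1 in the barrier-off pairs and 29193 bp ± 166 in the unmodified pairs, a difference of -9089 bp (exact permutation test, adjusted p = 0.0333). With the barrier off the point was thus nearer to RTS1 in all 4 pairs with the array, at 17884 to 21907 bp, than in any unmodified pair, at 29033 to 29424 bp. The step at the array site was 3.27, 10.7, 15.3 and 16.8 points in the barrier-off pairs and between -4.94 and -1.29 points in the unmodified pairs, which have no array there. The smallest barrier-off step, that of the Ku70:leu2 pair, was below the 4.48 points of the barrier-on pair without an array.

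On the Watson strand Pol ε usage between the sites was 93.6% ± 2.00 in the barrier-off pairs and 81.9% ± 4.04 in the unmodified pairs (exact permutation test, adjusted p = 0.0333). This gap was not confined to the stretch between the sites. The barrier-off pairs also lay above all unmodified pairs in every Watson-strand window from 828001 to 852000, left of RTS1. At 831001 to 834000 usage was 44.9 to 54.2% in the barrier-off pairs and 38.7 to 41.1% in the unmodified pairs. At 837001 to 840000 it was 45.9 to 52.7% and 30.5 to 36.3%. The cause of this wider gap was not tested. The sums of Pol δ usage were 93.2% ± 5.77 against 103.8% ± 2.13 between the sites and 89.0% ± 5.12 against 98.7% ± 1.48 beyond them (exact permutation test, adjusted p = 0.0333 for each). With scaling by the median bin the difference beyond the sites was -6.27 points and no longer passed (exact permutation test, adjusted p = 0.10). Genome-wide, the median of these sums relative to 100% was -2.16, -3.95, -5.11 and -1.93 points in the barrier-off pairs. In the unmodified pairs it was 1.11, -2.04, 0.87 and -3.19 points. These offsets were not subtracted here, so sums under 100% do not by themselves show a Pol ε excess at the locus. The barrier-off sums in strains with the array were below those of the unmodified pairs. Without any 1 of the 4 unmodified pairs the adjusted p of all 6 separating measures rose to 0.0667 (exact permutation test), and without any 1 barrier-off pair it was 0.0333. A barrier-off pair without the array was not analysed here.

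**Figure D5:**
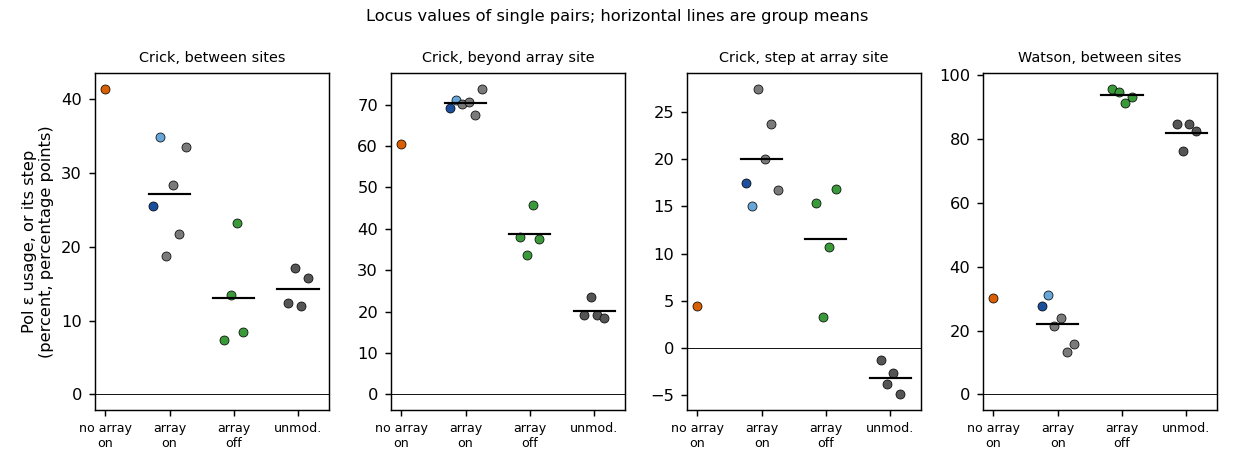
Locus values of single pairs: Crick-strand Pol ε usage between the sites and beyond the array site, its step at the array site (percentage points) and Watson-strand usage between the sites, for the barrier-on pair without the array, 6 barrier-on pairs with it, 4 barrier-off pairs with it and 4 unmodified pairs; points are pairs and lines group means. The no-array pair stands above all array pairs between the sites (41.4%), and below the barrier-on array pairs beyond the site (60.4%) and in the step (4.48 points).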

How the data were processed

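The authors treated the DNA of each strain with alkali, made libraries of the fragments, aligned their reads with Bowtie2 (version not given in the sources used here) and deposited raw counts per 300-bp bin and strand, on genomes that carry each construct. The genome build was not given in the sources used here. Samples were grouped by their labels. The members and lists were chosen with earlier results of these data known, and the named windows are the 3 furthest from the mean of the array pairs on each strand, with at most 3 outside the stretch and the genes at and between the sites.

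The length of each insertion was found by sliding the count profile of its strains against that of 4 pairs with an unmodified locus. Bins overlapping an insertion were dropped, the rest was shifted to ASM294v3, and windows left out 600 bp beside each insertion (852406 to 861857 between the sites, 863058 to 875057 beyond). The native RTS1 was left out of the genome-wide test. The files named forward were read as the Watson strand. Counts were scaled by library totals. Intervals are 95% Wilson intervals of the share, transformed for library totals, with hybrid intervals for sums and differences. Those of positions and reaches are where the pointwise bounds pass the threshold. They cover counting error only. Fragments carry no molecular identifiers, and 1 library per strain and polymerase leaves the spread between cultures unmeasured.

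The genome-wide test was run in R 4.3.3 with edgeR 4.0.16 and TMM scaling on windows of 3000 bp with at least 10 counts in every library. On simulated data of 8379 windows it recovered 98 of 100 windows changed 4-fold and 23 of 100 changed 2-fold, with 1 false call. The simulation gave every window the same dispersion, set below the common dispersion estimated from the 6 libraries. All simulated libraries had the same profile apart from these changes. The simulation also left out differences between strains, so recovery in the real data can be lower. Alternatives changed scaling, bins, smoothing, thresholds, windows, test (DESeq2 1.42.0) and libraries. Rescaling to a common genome-wide range was added after the data were seen. Python 3.11.15, numpy 2.4.6, pandas 2.3.3 and matplotlib 3.10.9 were used. The Pol α libraries and the inverted RTS1 pair were not used here.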

Additional observations from a re-analysis of the deposited data

Results flagged for a closer look

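Among 22 sets of 4 to 6 pairs screened by Dixon's criterion, where chance alone marks about 1 in 20, 2 pairs stood apart. The reach of the Pol δ excess in the array Ku70:leu2 pair, 8598 bp, lay below the 9461 to 9906 bp of the other 5 barrier-on pairs with the array. Crick-strand Pol ε usage beyond the array site in the ChrI-4740 pair, 23.4%, lay above the 18.5 to 19.3% of the other 3 unmodified pairs. That pair also had the second narrowest genome-wide range, and whether the range accounts for its value was not tested.

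Counts over strain markers, which enter no comparison, were at odds with labels of 3 pairs with the array. In the Pol δ library of the barrier-off rnh201::kan pair, the median bin of rtf1 was at 0.201 of its flanks, and in its Pol ε library at 0.00586. In the array pair labelled Ku70:leu2, the median bin of pku70 was at 0.943 in the Pol δ library and 1.04 in the Pol ε library. In the barrier-off pair of the same label it was at 0.879 and 0.839.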

How the results depend on the processing

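Of 48 alternatives for the difference between the no-array pair and the mean of the 2 array pairs, 34 moved it by no more than 1 SD of the 4 barrier-on array pairs with native rtf1 and a single RTS1. Crick-strand usage beyond the array site (-9.86 points, SD 0.83) became -7.37 with scaling by the median bin, -11.4 without extreme bins, -11.0 with the right side moved by 1 bin, -11.8 as the mean of bins, -11.2 with 1500 bp left out and -6.61 after rescaling to a common genome-wide range, which was chosen after seeing the data. The Pol δ sum beyond the site became 3.39 with the median bin. The 50% position (391 bp) became -1519 with 5 bins, -1299 after the rescaling, -4184 at 40% and 4049 at 60%. The reach (702 bp) became -224 with 1500-bp windows, a reversal, and 4226 at 0.25 of the excess. Watson-strand usage between the sites became -4.20 after the rescaling. The cause was not tested for any of these.

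edgeR's 0 calls became 541 (7 in the stretch) with DESeq2. Leaving out 1 library at a time gave 0 to 596 calls and 0 to 9 in the stretch. The labels carry no replicate numbers that pair strains. With each pair of libraries as a block edgeR made 0 calls.

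Barrier-off against unmodified pairs, the Pol δ sum beyond the site became -6.27 with the median bin (exact permutation test, adjusted p = 0.10). Leaving out 1 pair at a time gave -9690 to -8349 bp for the 50% position, 16.4 to 20.4 points for Crick-strand usage beyond the site, 9.77 to 12.6 for Watson-strand usage, -12.3 to -8.00 and -11.2 to -7.25 for the Pol δ sums between and beyond, and 12.9 to 17.5 for the step. The adjusted p by exact permutation was 0.0333 without any 1 barrier-off pair and 0.0667 without any 1 unmodified pair for all 6 of these. Crick-strand usage between the sites (-1.18) ran from -4.53 to 0.75 and was reversed without the rnh201::kan pair (0.75) and without the rnh201-RED Ku70::hyg pair (0.36), with no call under any alternative run.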
